A study of Homo sapiens with 4 samples.

Results

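The genes examined here are 10 chemokines and inflammatory cytokines that were listed as NF-kB-driven: the chemokines CXCL1, CXCL2, CXCL3, CXCL8 and CCL20, and the cytokines IL1A, IL1B, IL6, LIF and IL18. They were taken by name from a table of 28729 genes, in which 9 of the 10 were measured. CXCL1 was not analysed here. The table came from RNA sequencing of TU-177, an established line of laryngeal squamous cell carcinoma (LSCC), with 2 libraries of negative control cells (NC) and 2 libraries of SKA3-knockdown cells (SKA3-KD). SKA3 is a subunit of the complex that holds kinetochores to spindle microtubules in mitosis. Both groups were transduced with lentivirus and selected with puromycin, and they differed in the shRNA carried, which targeted SKA3 or was a negative control. The labels name shRNA, whereas the methods describe stable knockdown made with Cas9, and the hairpin of these libraries is not given in the sources used here. Nothing says whether the libraries of a group came from separate cultures, so p-values measure only the spread between these samples, which may be technical.

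In resting cells, NF-kB dimers are held in the cytoplasm by IkB proteins such as NFKBIA. Signals from interleukin-1, tumour necrosis factor or Toll-like receptors activate the IKK kinases, IkB is degraded, and the freed dimers enter the nucleus and bind kappaB sites near the start of chemokine and cytokine genes. Many carcinoma cells of the head and neck make CXCL8 and IL6 without added stimulus, and these factors draw in neutrophils and act back on the tumour cells through their receptors.

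The sequences just upstream of 4 of these genes are shown as a description. CXCL2, CXCL8 and IL6 had fewer reads in both SKA3-KD libraries. CXCL3, whose upstream sequence resembles that of CXCL2, overlapped between the groups. Whether these sequences bear on the values was not tested. Each line gives the 250 bases before the transcription start, 5′ to 3′ on the strand of the gene, from RefSeq (GRCh38.p14). The windows are chr4:74099196-74099445 (minus strand) for CXCL2, chr4:74038690-74038939 (minus strand) for CXCL3, chr4:73740319-73740568 (plus strand) for CXCL8 and chr7:22726950-22727199 (plus strand) for IL6. Capitals mark matches to GGNNNTTCC, a kappaB-like motif searched on both strands.
CXCL2: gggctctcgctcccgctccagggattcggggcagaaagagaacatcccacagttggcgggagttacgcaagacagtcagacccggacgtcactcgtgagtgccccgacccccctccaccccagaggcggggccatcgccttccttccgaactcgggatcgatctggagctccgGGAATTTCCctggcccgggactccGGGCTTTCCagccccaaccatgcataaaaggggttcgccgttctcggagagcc
CXCL3: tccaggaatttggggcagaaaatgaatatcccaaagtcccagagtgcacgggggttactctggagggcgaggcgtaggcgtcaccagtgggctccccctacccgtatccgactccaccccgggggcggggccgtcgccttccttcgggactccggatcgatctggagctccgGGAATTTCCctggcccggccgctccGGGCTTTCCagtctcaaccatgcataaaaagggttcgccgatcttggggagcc
CXCL8: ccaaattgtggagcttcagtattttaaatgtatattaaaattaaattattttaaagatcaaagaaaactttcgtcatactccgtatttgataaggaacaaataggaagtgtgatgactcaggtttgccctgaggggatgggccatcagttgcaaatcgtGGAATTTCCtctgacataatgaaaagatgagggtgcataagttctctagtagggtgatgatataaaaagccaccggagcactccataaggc
IL6: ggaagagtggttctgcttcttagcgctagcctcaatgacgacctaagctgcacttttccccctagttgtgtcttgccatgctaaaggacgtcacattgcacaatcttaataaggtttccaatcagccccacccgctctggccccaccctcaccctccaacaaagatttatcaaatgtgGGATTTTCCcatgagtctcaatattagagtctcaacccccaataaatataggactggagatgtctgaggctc

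CXCL2 and CXCL3 each held the same pair of matches, GGAATTTCC and GGGCTTTCC, beginning 77 and 53 bases upstream in CXCL2 and 78 and 53 bases upstream in CXCL3. Their windows were identical at 195 of 250 bases (78.0%) after alignment. The same count was 119 bases for CXCL2 and CXCL8, 144 for CXCL2 and IL6, and 138 for CXCL8 and IL6. CXCL8 held 1 match, GGAATTTCC, 91 bases upstream, and IL6 held GGATTTTCC 72 bases upstream. CXCL8 also held a match to the AP-1-like motif TGANTCA 137 bases upstream and TATAAA 31 bases upstream, neither of which overlaps the kappaB-like match. RefSeq windows were at hand for 7 of the 9 measured genes, and 5 of the 7 held GGNNNTTCC, the others being IL1A and IL1B. Among all 35116 upstream windows of the same length, 17.1% held this motif, 6.57% held TGANTCA and 10.7% held TATAAA. These genes were listed as NF-kB-driven, so the matches are a description of the list.

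Expression is given as FPKM, a count of fragments scaled to transcript length and library size, which can be compared between genes. SKA3 itself was checked first. It stood at 9.40 and 9.64 FPKM in the NC libraries and at 3.77 and 4.12 in the SKA3-KD libraries, a log2 fold change of -1.09 ± 0.07 (SE) with an adjusted p of 0.00806 by limma. The steps of the FPKM values gave back whole reads for 97.5% of the 12645 genes tested, and the libraries held 11966130 (NC 1), 9015056 (NC 2), 10177854 (SKA3-KD 1) and 11793604 (SKA3-KD 2) reads. The main test was limma on log2(FPKM + 1) over genes with a mean of at least 1 FPKM, and a gene was called at an adjusted p below 0.05. The difference on that scale understates the change of low genes.

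The 9 measured genes covered a wide range of expression. In NC cells IL18 was highest at 20.4 ± 0.444 FPKM (SD, n = 2), followed by LIF at 3.92 ± 0.626 and CXCL2 at 2.03 ± 0.0458. CXCL8 (1.16 ± 0.185) and IL6 (1.14 ± 0.301) came next, and their libraries overlapped. CXCL3 (0.444 ± 0.362), CCL20 (0.167 ± 0.118) and IL1A (0.144 ± 0.0921) did not separate beyond their spread, and IL1B was lowest at 0.0179 ± 0.0253. In SKA3-KD cells IL18 and LIF again led, and the values of CXCL3, CXCL8 and IL6 ran into each other below 0.4 FPKM. IL18 alone made up 70.9% and 68.0% of the summed FPKM of these 9 genes in the NC libraries, and 89.9% and 85.3% in the SKA3-KD libraries.

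**Figure D1:**
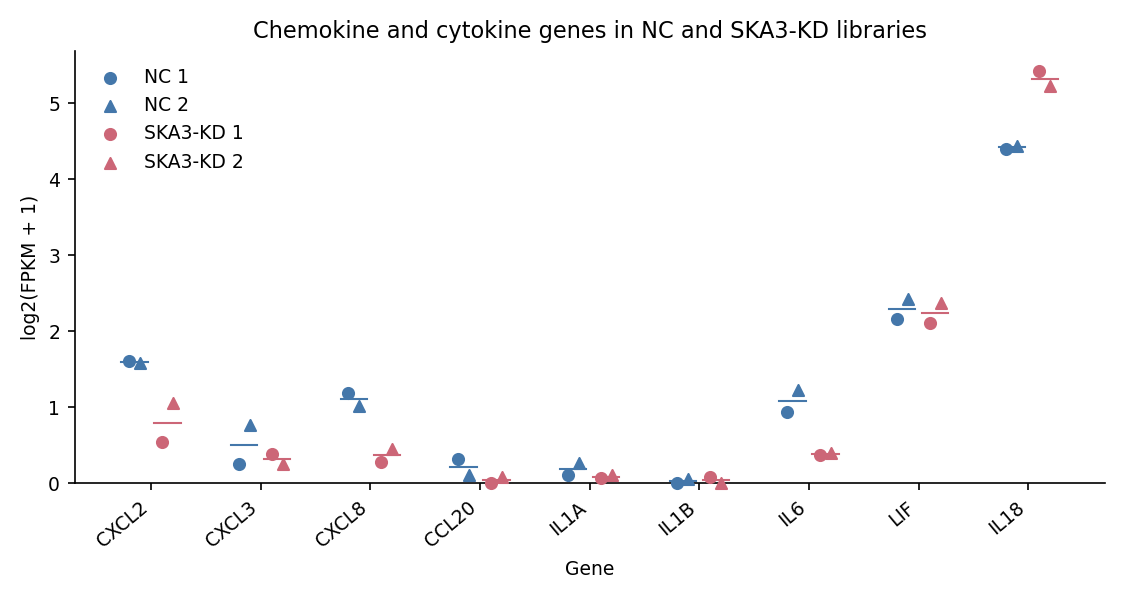
Expression of the 9 measured chemokine and cytokine genes as log2(FPKM + 1), with 1 point per library (NC in blue, SKA3-KD in red, circles for replicate 1 and triangles for replicate 2) and a short line at each group mean. IL18 is higher in both SKA3-KD libraries, LIF overlaps between groups, and CXCL2, CXCL8 and IL6 are lower in both SKA3-KD libraries.

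Only 3 of the 9 genes, CXCL2, LIF and IL18, reached the mean of 1 FPKM, and 6 fell under it. Of the 3, IL18 was called higher. Over all 12645 genes 779 were called higher (6.16%) and 772 lower (6.11%). limma called none of the 3 lower at the adjusted threshold, and 1 of them, CXCL2, was lower at an unadjusted p under 0.05. Because the filter left out most of the list, a second fit was run on the recovered reads with limma voom, keeping the 15667 genes that averaged 5 reads or more per library. This fit was added after the data were seen. It tested 6 of the 9 genes and called CXCL2, CXCL8 and IL6 lower, IL18 higher, and CXCL3 and LIF neither way. In this fit 10.3% of all genes tested were called lower and 11.0% higher. With 2 libraries per group an exact permutation test has a smallest possible p of 0.333, so no single gene was tested that way.

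CXCL8 (interleukin-8) attracts and activates neutrophils through CXCR1 and CXCR2. It had 1.29 and 1.02 FPKM in the NC libraries, from 35 and 21 reads, and 0.216 and 0.373 FPKM in the SKA3-KD libraries, from 5 and 10 reads. Both SKA3-KD libraries lay below both NC libraries. The rate of CXCL8 reads in SKA3-KD was 0.256 of that in NC, with a 95% exact interval of 0.134 to 0.459 that covers counting error only, as do all such intervals here. limma with no filter on low values gave a log2 fold change of -0.74 with an adjusted p of 0.115 and did not call CXCL8. The voom log2 fold change was -1.94 ± 0.46 (SE), with an adjusted p of 0.00467. Leaving out each library in turn gave adjusted p between 0.00172 and 0.0356.

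IL6 acts through IL6R and the shared subunit gp130 to activate STAT3. Its values were 0.925 and 1.35 FPKM in NC (30 and 33 reads) and 0.290 and 0.313 FPKM in SKA3-KD (8 and 10 reads), and the groups did not overlap. The ratio of read rates was 0.273 (0.152 to 0.467). These reads were recovered from the ratios between libraries, not from the exon length as for CXCL8 and CXCL2. limma with no filter on low values gave a log2 fold change of -0.71 with an adjusted p of 0.132 and did not call IL6. The voom log2 fold change was -1.80 ± 0.43 with an adjusted p of 0.00486, and between 0.000987 and 0.0228 without each library in turn. An antisense gene, IL6-AS1, shares 428 exon bases with IL6, and whether the counting used strand is not given in the sources used here. IL6-AS1 was listed at 0 in both NC libraries and in SKA3-KD 2 and at 0.144 FPKM in SKA3-KD 1.

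CXCL2, a close paralog of CXCL1 and CXCL3 that also acts on CXCR2, had 2.06 and 1.997 FPKM in NC, from 37 and 27 reads. In SKA3-KD it had 0.459 and 1.07 FPKM, from 7 and 19 reads. SKA3-KD 2 stood between SKA3-KD 1 and the NC libraries. On log2(FPKM + 1) the difference was -0.80 ± 0.21 with an adjusted p of 0.0720 by limma, which missed the threshold, and CXCL2 passed the filter on low values through its NC libraries. The voom fit gave -1.45 ± 0.41 with an adjusted p of 0.0159. Without SKA3-KD 1 the voom value fell to -0.91 and its adjusted p was 0.185, so the call rests on that library. The ratio of read rates was 0.388 (0.236 to 0.621).

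CXCL3, which acts on the same receptor, was not called. It had 5 and 14 reads in NC (0.188 and 0.6998 FPKM) and 7 and 5 reads in SKA3-KD (0.310 and 0.191 FPKM), so the groups overlapped and NC 2 alone stood high. The voom log2 fold change was -0.47 ± 0.64 (adjusted p = 0.657), and it ran from -1.47 without NC 1 (adjusted p = 0.132) to 0.33 without NC 2, so NC 1 and NC 2 set its direction. The interval of the ratio, 0.267 to 1.31, holds both no change and the ratio of CXCL2, so a difference between CXCL2 and CXCL3 was not shown at this depth. The transcripts of the pair share some sequence: 8.99% of the 50-base words of CXCL2 and 6.01% of those of CXCL3 occur in the other, and how reads from these stretches were assigned is not given in the sources used here.

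For CCL20, the ligand of CCR6 on Th17 cells and dendritic cells, the NC libraries held 4 and 1 reads and the SKA3-KD libraries 0 and 1. For IL1A, an alarmin of epithelial cells, they held 2 and 4 against 1 and 2. For IL1B, which is made as a precursor and cut by caspase-1, they held 0 and 1 against 2 and 0. These 3 genes had fewer than 10 reads over all libraries, and a change in either direction was not detectable at this depth. The ratios of read rates ran from 0.00404 to 1.71 for CCL20, from 0.0773 to 2.24 for IL1A and from 0.0994 to 113 for IL1B.

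**Figure D2:**
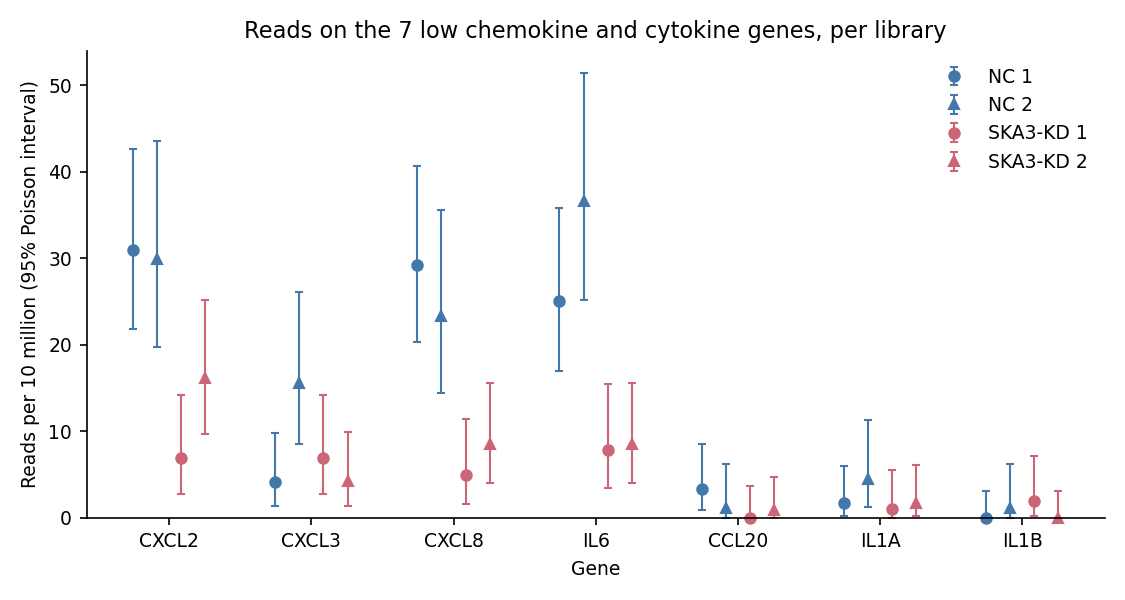
Reads per 10000000 in each library for the 7 measured genes other than LIF and IL18, with 95% Poisson intervals that cover counting error only. For CXCL8 and IL6 the points of both SKA3-KD libraries lie well below those of both NC libraries, CXCL3 overlaps, and CCL20, IL1A and IL1B sit near 0 in every library.

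LIF, a cytokine of the IL-6 family that signals through LIFR and gp130, was the second most expressed of these genes and was not called by either fit. Its libraries read 3.47 and 4.36 FPKM in NC and 3.32 and 4.19 FPKM in SKA3-KD, from 134 to 196 reads each. The log2 fold change was -0.05 ± 0.14 (adjusted p = 0.845 by limma), and the ratio of read rates was 0.982 (0.839 to 1.15), an interval that lies above the ratios of CXCL8, IL6 and CXCL2. The groups overlapped. Its antisense neighbours LIF-AS1 and LIF-AS2 share 92 and 175 exon bases with it and were at most 0.550 FPKM.

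IL18 moved the other way. This cytokine is stored as a precursor in many epithelial cells and, like IL1B, matures by cleavage. It had 20.1 and 20.7 FPKM in NC (632 and 491 reads) and 41.8 and 36.6 FPKM in SKA3-KD (1118 and 1133 reads), with both SKA3-KD libraries above both NC libraries. The log2 fold change was 0.91 ± 0.08 with an adjusted p of 0.0103 by limma, and 0.94 ± 0.09 with an adjusted p of 4.08e-07 by voom. The ratio of read rates was 1.91 (1.78 to 2.06). In the limma fit the call was lost without NC 1 (adjusted p = 0.0678), without NC 2 (0.0621) and without SKA3-KD 1 (0.0525), and it held without SKA3-KD 2 (0.0314). The voom call held without each library.

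The other genes of the pathway were described from 13 lists by role, with 160 entries in all, of which 25 were not analysed here. Counts are of genes called by limma, and the median log2 fold change over all 12645 genes was 0.01. Over all genes tested, limma called 6.11% lower and 6.16% higher, and voom called 10.3% lower and 11.0% higher. limma called 19 genes of these lists, and voom, fitted to the same libraries, called each of the 19 in the same direction. In the limma fit these calls depend on every library: without NC 1 or without NC 2 it called 0 of them, without SKA3-KD 1 it called 2 NF-kB-responsive genes and 1 fibroblast marker, and without SKA3-KD 2 it called 3 NF-kB-responsive genes, 1 cytokine, 1 receptor and 1 fibroblast marker.

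Of 31 other cytokines and chemokines, 25 were measured and 7 tested; 2 fell and 5 were not called, with a median of -0.28. IL32, a cytokine induced by inflammatory signals, fell from 39.6 and 40.1 FPKM to 21.98 and 24.2 (log2 fold change -0.77, adjusted p = 0.0103). EBI3, a subunit of IL-27 and IL-35, fell from 7.29 and 8.64 FPKM to 4.13 and 3.70 (-0.86, adjusted p = 0.0160). limma called no gene of this list higher, nor was any higher at an unadjusted p under 0.05, and voom called 1, IL23A, whose reads numbered 2 and 1 in NC against 9 and 8 in SKA3-KD and which met the minimum of 5 reads only through SKA3-KD. TNF and CXCL10 had reads in NC only: TNF had 5 and 6, CXCL10 had 5 and 2, and both had 0 in each SKA3-KD library. The exact interval of the ratio of read rates reached up to 0.380 for TNF and 0.663 for CXCL10. Other low genes of the list had more reads in SKA3-KD: CSF3 had 0 reads in both NC libraries and 1 and 3 in SKA3-KD, and IL11 had 20 and 13 in NC against 26 and 34 in SKA3-KD, a ratio of 1.74 (1.12 to 2.74), with an adjusted p of 0.132 by voom. These 4 genes were named after their values were seen.

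Among 9 receptor genes tested of 12 measured, 1 fell, 1 rose and 7 were not called by limma, with a median of -0.20. voom called 4 lower and 1 higher. OSMR, the signalling subunit for oncostatin M, fell from 22.8 and 21.7 FPKM to 10.4 and 11.3 (-0.97, adjusted p = 0.00827). LIFR, the receptor of LIF, rose from 20.1 and 17.4 FPKM to 33.7 and 29.6 (0.73, adjusted p = 0.0208). TNFRSF1A, the main receptor for tumour necrosis factor, was not called, at 20.6 and 21.1 FPKM in NC and 20.8 and 20.6 in SKA3-KD. gp130 itself (IL6ST) had 16.1 and 14.9 FPKM in NC and 12.6 and 11.5 in SKA3-KD, with an adjusted p of 0.0535 by limma, which missed the threshold, and 0.00210 by voom, which called it lower. The other receptors called lower by voom alone were ACKR3 (adjusted p = 0.0194) and TNFRSF1B (0.0340). These 3 were named after their values were seen.

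Between the receptors and IKK, 1 of 16 genes tested rose and 15 were not called, with a median of -0.08. IRAK1, the kinase that links interleukin-1 and Toll-like receptors to TRAF6, rose from 94.95 and 107 FPKM to 159 and 178 (0.74, adjusted p = 0.0160). The next most expressed gene of the list, the adaptor TRAF2, was not called, with 25.3 and 27.9 FPKM in NC and 29.6 and 32.3 in SKA3-KD. limma called no gene of this list lower. At an unadjusted p under 0.05, 6 of the 16 were lower and 2 higher, against 1912 lower and 2046 higher of all 12645 genes. voom called IRAK1 higher and 3 genes lower: IKBKB (adjusted p = 0.00470), TAB3 (0.00504) and TBK1 (0.0435). IKBKB had 4.57 and 4.84 FPKM in NC and 3.56 and 3.49 in SKA3-KD, with an adjusted p of 0.0577 by limma. The 3 lower genes were named after their values were seen. limma called none of the 5 NF-kB subunit genes. Of these, 2 were higher at an unadjusted p under 0.05, NFKB2 and RELB, and voom called NFKB2 higher (adjusted p = 0.0125). NFKB2 had 27.4 and 32.5 FPKM in NC and 34.7 and 39.8 in SKA3-KD. RELB, named after its values were seen, had 5.62 and 5.64 FPKM in NC and 6.61 and 7.08 in SKA3-KD. RELA, at 17.5 and 17.9 FPKM in NC and 19.1 and 19.5 in SKA3-KD, was called by neither fit. 

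Some of the inhibitors and feedback regulators are themselves NF-kB targets. Of 9 tested, 3 fell and 6 were not called, with a median of -0.19. NFKBIA, which encodes IkBα, fell from 13.9 and 14.8 FPKM to 7.99 and 7.18 (-0.84, adjusted p = 0.0112). NFKBIZ, an IkB protein that acts in the nucleus as a cofactor for IL6 and other secondary targets, fell from 7.97 and 9.66 FPKM to 4.01 and 4.30 (-0.92, adjusted p = 0.0150). TNFAIP3, the ubiquitin-editing enzyme A20, fell from 5.99 and 6.65 FPKM to 4.58 and 4.36 (-0.42, adjusted p = 0.0393). The 2 most expressed of the list, TNIP1 and TNIP2, which bind A20, were not called, at -0.19 and 0.10.

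Of 11 other NF-kB-responsive genes tested, 4 fell and 7 were not called, with a median of -0.13. CD83, a surface protein of activated cells, fell from 52.3 and 51.1 FPKM to 19.8 and 17.2 (-1.43, adjusted p = 0.00650). Complement component C3 fell from 30.1 and 33.0 FPKM to 13.4 and 12.8 (-1.20, adjusted p = 0.00709). PTGS2, the inducible cyclooxygenase of prostaglandin synthesis, fell from 8.64 and 9.49 FPKM to 3.60 and 4.28 (-1.03, adjusted p = 0.0114). TNFAIP2 fell by 0.42 on the log2 scale (adjusted p = 0.0224). The list did not move as one: ICAM1, BIRC3 and SOD2, named after their values were seen, had log2 fold changes of 0.25, 0.18 and 0.05 and were not called. voom called 1 gene of the list higher, IER3 (0.44, adjusted p = 0.0101). IER3 had 22.8 and 30.5 FPKM in NC and 34.6 and 36.0 in SKA3-KD, and limma did not call it (0.41, adjusted p = 0.125). It too was named after its values were seen.

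**Figure D3:**
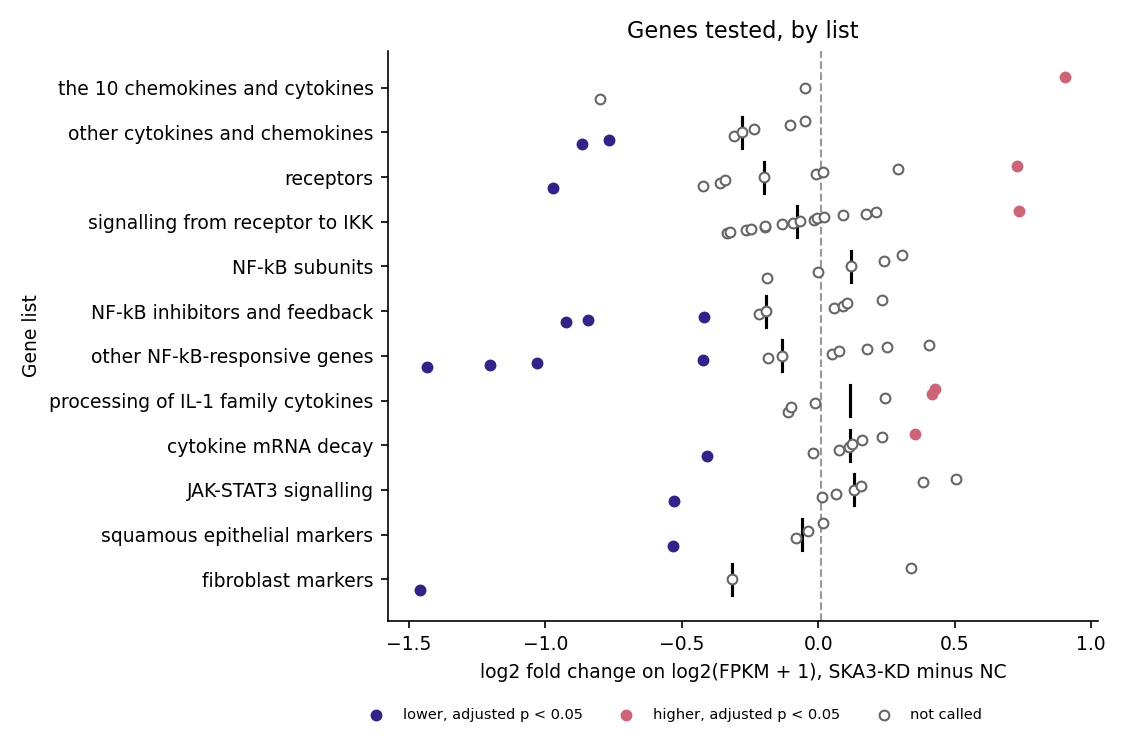
Log2 fold change on log2(FPKM + 1), SKA3-KD minus NC, of each gene tested by limma, by list, with filled points for genes called at an adjusted p below 0.05, open points for genes not called, a black bar at the median of a list (none is drawn for the top row) and a dashed line at the median of all genes tested, 0.01. The 3 called inhibitors and the 4 called NF-kB-responsive genes lie to the left, and the genes of those lists that were not called lie on both sides of 0. The NF-kB subunits, none of them called, run from -0.19 (REL) to 0.31 (NFKB2).

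Genes that process the interleukin-1 family and gasdermins bear on whether IL18 and IL1B are released. Of 6 tested, CAPN2 and CASP4 rose and 4 were not called, with a median of 0.12. CAPN2, a calpain subunit, rose from 41.2 FPKM in both NC libraries to 54.9 and 56.7 (0.43, adjusted p = 0.0175). CASP4, an inflammatory caspase, rose from 5.06 and 5.38 FPKM to 7.85 and 6.79 (0.42, adjusted p = 0.0493). That call was lost under 5 of the 9 alternatives that kept every library, with adjusted p of 0.0534 to 0.135. CAPN1, the next most expressed, was not called, at -0.11. CASP1, a caspase that cleaves pro-IL18 and pro-IL1B, lay under the filter and was singled out after its values were seen. Its reads numbered 48 and 29 in NC against 11 and 3 in SKA3-KD, a voom log2 fold change of -2.72 ± 0.52 with an adjusted p of 0.000762.

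Cytokine mRNAs are short-lived, and 8 genes that govern their decay were tested: 1 fell, 1 rose and 6 were not called, with a median of 0.12. HNRNPD (AUF1), which binds AU-rich elements, fell from 75.8 and 70.8 FPKM to 55.7 and 54.1 (-0.41, adjusted p = 0.0231). KHSRP, which promotes decay of AU-rich mRNAs, rose from 96.1 and 104 FPKM to 125 and 131 (0.36, adjusted p = 0.0349). Downstream of IL6 and LIF, 1 of 7 JAK-STAT3 genes tested fell and 6 were not called by limma, with a median of 0.13; voom called 1 lower and 2 higher. SOCS3, a STAT3 target that blocks gp130 signalling, fell from 19.8 and 23.2 FPKM to 14.5 and 14.6 (-0.53, adjusted p = 0.0293). STAT3 was not called, at 24.8 and 25.4 FPKM in NC and 25.2 and 25.4 in SKA3-KD. The kinase PIM1, a STAT3 target, had 17.9 and 22.4 FPKM in NC and 25.5 and 27.5 in SKA3-KD, and was called higher by voom (0.42, adjusted p = 0.00483) but not by limma (0.39, adjusted p = 0.0945). JAK2, named after its values were seen, was the other gene called higher by voom (0.85, adjusted p = 0.00345).

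**Figure D4:**
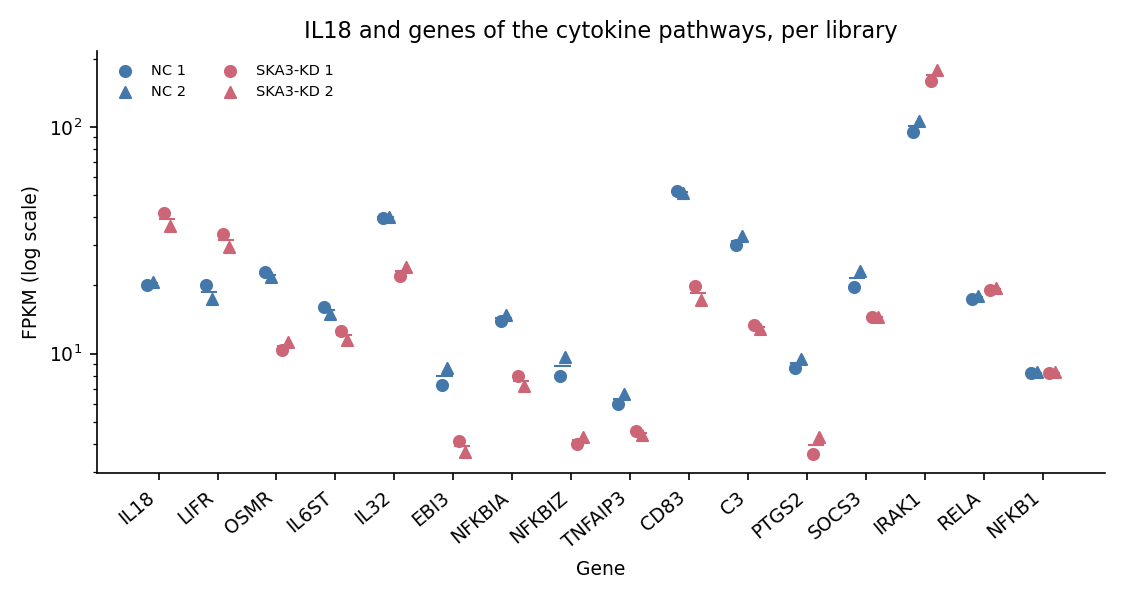
FPKM on a log axis of IL18 and of 15 other genes of the cytokine pathways, with 1 point per library (NC in blue, SKA3-KD in red, circles for replicate 1 and triangles for replicate 2) and a line at each group mean. The NC and SKA3-KD points are apart for OSMR, CD83, C3 and PTGS2 and nearly coincide for NFKB1.

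Markers of other cell types were near 0 for the most part. All 6 leukocyte markers measured were under 1 FPKM in every library, their sum was 0.828 to 1.34 FPKM, and PTPRC (CD45) had 1 read in all. The 3 endothelial markers summed to at most 0.397 FPKM. The most expressed of the lists were CSF1R (0.412 to 0.568 FPKM) and CD14 (0.225 to 0.365) for leukocytes, and TEK (0.0824 to 0.315) and VWF (0.0253 to 0.0683) for endothelium. The 6 fibroblast markers summed to 15.4 and 15.8 FPKM in NC and 8.86 and 9.56 in SKA3-KD. COL1A2 had 1 read in all, whereas DCN (decorin), the most expressed, fell from 8.40 and 8.36 FPKM to 2.48 and 2.35 (-1.46, adjusted p = 0.00650). PDGFRB, the next most expressed, had 2.88 and 2.46 FPKM in NC and 3.19 and 4.13 in SKA3-KD, and was called higher by voom (adjusted p = 0.0283) but not by limma (0.165). voom called 3 of the list lower, DCN, COL1A1 (adjusted p = 0.0201) and COL3A1 (0.0192). DCN fell alongside the lower reads of CXCL8 and IL6, and its part in those results was not tested; in bulk RNA fewer cells of a type and less RNA per cell cannot be told apart. Of the 9 squamous and epithelial markers, SFN (133 to 155 FPKM) and DSP (65.8 to 68.7 FPKM) were high and not called, and KRT17 fell from 45.6 and 49.1 FPKM to 29.4 and 35.7 (-0.53, adjusted p = 0.0396). The other keratins of the list, KRT5, KRT14 and KRT6A, had at most 4 reads in any library, and TP63 and CDH1 were under 1 FPKM, so several defining markers of the labelled cell type were absent or low in both groups.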

How the data were processed

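RNA was sequenced from 4 libraries of TU-177 cells, 2 NC and 2 SKA3-KD, grouped by their labels. The authors deposited 1 table of FPKM values per gene, normalized by them for length and library size. The submitters' processing notes name hg19, Bowtie2 (2.2.8), HISAT2, StringTie (1.3.1) and Cuffdiff (2.1.1) without roles. Symbols and exon lengths came from GENCODE 29, on another build, so no coordinates of measured genes are given. The upstream windows come from RefSeq (GRCh38.p14), which had entries for 8 of the 10 genes.

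Differences were tested with limma (3.58.1, R 4.3.3; linear fits moderated by eBayes, trend on) of log2(FPKM + 1), with Benjamini-Hochberg adjustment over the 12645 genes with a mean of at least 1 FPKM. FPKM x length x library size gave whole reads, within 0.02 of a whole number, for 98.8% of genes above 0. Part of these took the length from the ratios between libraries, among them IL6, CCL20, CASP1 and IL23A. Of the genes tested, 61.4% used the exon length itself. Library sizes of 9015056 to 11966130 reads were read from the steps. limma voom was fitted to these reads, and intervals of read-rate ratios are exact binomial at the 95% level. Replicates differed more than by sampling (chi-square per degree of freedom 3.45 in NC and 3.40 in SKA3-KD). The 10 genes and the lists were chosen with earlier results of these data known. Named genes are the 10, SKA3, and from each list the genes called (at most 8) and the 2 with the highest mean FPKM. Any others, including defining markers of cell types and the genes of the motif and antisense checks, were named after their values were seen. The fits were checked on simulated data, with changes planted only in genes of higher read counts. That check does not cover genes with as few reads as CXCL2, CXCL8 and IL6.

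The alternatives were another pseudocount, filter, scaling or variance model, a block for the replicate number, voom, and leaving out each library. The voom fit over genes with at least 5 reads, with and without each library, was added after the data were seen.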

Additional observations from a re-analysis of the deposited data

How the results depend on the processing

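IL18 was higher under each of the 9 alternatives that kept every library (log2 fold change 0.89 to 0.94), and its limma call was lost with no filter on low values (adjusted p = 0.0517, called genes of the list 0). CXCL2 ran from -1.45 to -0.71 and was called only by voom. LIF was never called. The count of genes called lower and higher moved from 772 and 779 to 1613 and 1726 with voom over genes with at least 5 reads (3 of the list lower), to 1528 and 1704 with voom over genes with at least 1 FPKM (1 lower, CXCL2), to 81 and 48 with no filter, which tests more genes, and to 381 and 312 without a mean-variance trend. The cause of the other shifts was not tested. With the replicate number as a block, 965 genes were lower and 1002 higher, and 1 gene of the list, IL18, was higher. The correlation of the replicate deviations was 0.0973, so the shared number is not taken as a pairing, and it changed no call on the list. Quantile normalization, a pseudocount of 0.1, scaling by median ratios and a filter at 5 FPKM kept both counts within 1.5 times. Leaving out 1 library in the limma fit gave 0 to 135 genes lower and 0 to 46 higher, 0 of the list lower and 0 to 1 higher: none of the lower or higher calls remained without NC 1 or without NC 2, 53 lower and 13 higher without SKA3-KD 1, and 135 and 46 without SKA3-KD 2. This bears on the calls of the pathway lists too, of which those lower among inhibitors and feedback regulators fell from 3 to 0 without any 1 library. Of the 19 pathway and marker genes called by limma, 14 lost the call with no filter, 7 without a trend, 2 (TNFAIP3 and CASP4) with the replicate block, and CASP4 alone with quantile or median-ratio scaling. The lone library is then assumed to vary like the other group. The voom fit gave 1078 to 1559 lower and 1153 to 1538 higher without 1 library, with 2 to 3 of the list lower and 1 higher. Depth limits CCL20, IL1A and IL1B.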
